A study of Mus musculus with 20 samples.

Results

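The subject here is the circadian clock, as read from 10 genes: Arntl (which encodes BMAL1), Clock, Per1, Per2, Per3, Cry1, Cry2, Nr1d1, Nr1d2 and Dbp. They were chosen by symbol, as textbook members of the core loop and 1 of its direct outputs, and make up 10 of the 14191 genes in the deposited tables. RNA was sequenced from cells sorted for F4/80 and CD11b, proteins found on the surface of mouse macrophages (CD11b also on neutrophils and monocytes). All mice were male, and the series title places the study in the ageing of fat tissue and the inflammasome. From visceral adipose tissue (VAT) there were 3 libraries of wild-type mice aged 3 months, 4 of wild-type mice aged 24 months and 4 of Nlrp3-null mice aged 24 months. Spleen gave 2, 4 and 3 libraries for these age and genotype groups, so that every null library is of the older age. Nlrp3 encodes the sensor protein of the NLRP3 inflammasome, through which caspase-1 becomes active. The null label names the genotype alone, and the labels do not say whether each library is 1 mouse or a pool of mice, whether VAT and spleen libraries share mice, or at what hour the mice were killed. P-values therefore measure only the spread between these libraries, which may be technical.

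In the clock of mammalian cells, BMAL1 and CLOCK form a pair that binds E-box motifs and switches on the Per, Cry, Nr1d and Dbp genes. PER and CRY proteins then return to the nucleus and hold that pair down, while the Nr1d proteins, known as REV-ERB alpha and beta, repress Arntl itself. The Arntl transcript therefore peaks at about the opposite time of day to the Nr1d1, Nr1d2, Dbp and Per3 transcripts. Macrophages carry such a clock, and their cytokine output and the traffic of myeloid cells are known to follow the time of day. A difference in clock transcripts between groups of mice can thus reflect the level of the clock, the hour of harvest or the mix of cells, among others. Single time points cannot tell these apart.

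Values are normalised read counts, as the authors deposited them in 3 tables that were normalised separately: the wild-type table, the VAT table and the spleen table. The 20 libraries held 24082377 to 37471479 recovered reads, and 3 reads, the most that a count of 0 allows, came to 2.33 to 3.85 normalised counts per library. That limit covers counting error only, since no molecular identifiers are described and PCR copies may count as separate reads. All 10 clock genes stood in all 3 tables and passed the filter on low values. Nlrp3, the check of the genotype labels, read 3331, 3741, 2708 and 4254 in wild-type and 10.001, 10.5, 6.15 and 200.4 in null VAT at 24 months, and 663, 456, 463 and 341 in wild-type and 1, 3.61 and 1 in null spleen. Every null library lay below every wild-type library of its tissue, and null VAT replicate 4, at 200.4, lay above the other null libraries. Of the 10 macrophage markers, which include Adgre1 (F4/80) and Itgam (CD11b), all were listed in every table. Their summed level was 801600 to 1056000 in wild-type VAT and 172800 to 330000 in wild-type spleen. Some libraries stood apart: on principal components of the 1000 most variable genes, 24-month wild-type VAT replicate 1 scored 63.21 on component 2 of the VAT table (the other libraries -17.03 to 7.19). Replicate 1 of 3-month spleen scored 83.18 on component 1 of the spleen table (the other libraries -20.0 to 16.54). Calls of clock genes that are lost without either library are given both ways.

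Promoter windows of 300 bases, from 250 before to 50 after the annotated start, were read from RefSeq on build GRCm38.p6, which matched 9 of the 10 genes, all but Per2. They were searched on both strands for the E-box CACGTG, the E′-box CACGTT, the D-box TTATGTAA or TTACGTAA (bound by DBP and its relatives and by NFIL3), the core of the element bound by REV-ERB and ROR proteins, TAGGTCA or TGGGTCA, and the cyclic AMP element TGACGTCA. The windows of 5 genes held a match before the start, and these are shown because they carry the letters through which the loop is known to act. Each is printed 5′ to 3′ on the strand of its gene, as far as it lies before the start and outside the gene's annotated exons, with each match in capitals. The Per1 window lies inside the annotated gene, between its exons, and the others lie upstream of theirs.
Nr1d1 (chr11:98775378-98775627, reverse strand): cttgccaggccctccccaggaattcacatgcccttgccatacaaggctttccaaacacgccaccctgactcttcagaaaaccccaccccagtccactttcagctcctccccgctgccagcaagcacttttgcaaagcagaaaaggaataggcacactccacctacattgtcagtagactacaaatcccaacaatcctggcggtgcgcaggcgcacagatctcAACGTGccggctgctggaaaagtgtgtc
Per1 (chr11:69098699-69098947, forward strand): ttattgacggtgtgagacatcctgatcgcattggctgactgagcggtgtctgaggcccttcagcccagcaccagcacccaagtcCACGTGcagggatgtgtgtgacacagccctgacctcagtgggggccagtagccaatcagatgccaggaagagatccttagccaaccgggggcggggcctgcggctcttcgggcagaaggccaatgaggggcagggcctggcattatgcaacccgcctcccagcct
Cry1 (chr10:85185065-85185304, reverse strand): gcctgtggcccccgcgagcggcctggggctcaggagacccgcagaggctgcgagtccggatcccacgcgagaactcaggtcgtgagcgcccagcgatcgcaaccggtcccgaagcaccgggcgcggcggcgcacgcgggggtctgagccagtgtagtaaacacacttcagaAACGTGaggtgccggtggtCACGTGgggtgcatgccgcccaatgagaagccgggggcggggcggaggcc
Cry2 (chr2:92434070-92434319, reverse strand): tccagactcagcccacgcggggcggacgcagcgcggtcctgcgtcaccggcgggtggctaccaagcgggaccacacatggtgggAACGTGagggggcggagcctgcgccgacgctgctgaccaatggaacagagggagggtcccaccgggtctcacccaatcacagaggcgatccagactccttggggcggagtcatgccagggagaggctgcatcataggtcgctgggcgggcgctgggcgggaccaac
Per3 (chr4:151044666-151044915, reverse strand): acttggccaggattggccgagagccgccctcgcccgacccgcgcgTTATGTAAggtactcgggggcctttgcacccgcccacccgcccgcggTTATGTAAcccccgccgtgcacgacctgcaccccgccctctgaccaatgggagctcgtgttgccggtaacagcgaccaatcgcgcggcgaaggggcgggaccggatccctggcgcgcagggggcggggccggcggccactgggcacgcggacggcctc
In Nr1d1 the capitals mark an E′-box whose first base lies 28 bases before the start, and in Per1 an E-box 166 bases before it. Cry1 held an E-box at 60 and an E′-box at 79 bases before the start, and Cry2 an E′-box at 166. Per3 held the D-box TTATGTAA at both 205 and 158 bases before its start. A second start of Arntl held TAGGTCA at 31 bases after it, and no match overlapped another. Of all 32851 windows, 7.15% held the E-box, 4.68% the E′-box, 1.06% the D-box, 6.45% the REV-ERB and ROR core and 1.79% the cyclic AMP element. The windows of Clock, Nr1d2 and Dbp held none of these letters, which says nothing of sites elsewhere.

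Per kilobase of exon, with the exons of all annotated transcripts of a gene joined, the order of the clock genes differed between the tissues. That length can exceed the length of the transcript present, so levels of different genes compare only roughly. In 24-month wild-type VAT Nr1d1 was highest, at a mean of 387 normalised counts per kilobase, ahead of Cry1 (214), Per1 (209), Nr1d2 (157) and Arntl (137). In 24-month wild-type spleen Cry1 was highest, at 217 per kilobase, ahead of Nr1d2 (60.05) and Arntl (58.6), and Nr1d1 was lowest, at 9.30. Neighbours in these orders, such as Cry1 and Per1 in VAT or Nr1d2 and Arntl in spleen, lay closer together than their spread between libraries. At 3 months the same genes stood first, Nr1d1 in VAT (289) and Cry1 in spleen (136).

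The comparison of tissues asked whether the sorted cells of VAT and spleen hold the clock transcripts at the same level. At 24 months 6 of the 10 clock genes were higher in VAT at an adjusted p under 0.05 (limma on log2 values, Benjamini-Hochberg over all 13702 genes tested) and none was lower. They were Nr1d1, Per1, Nr1d2, Arntl, Clock and Cry2. Of all genes tested 49.1% were called in this comparison, 26.6% as higher in VAT and 22.5% as lower. At 3 months the same 6 genes were higher and none was lower, where 41.9% of all genes were called, 23.2% as higher and 18.7% as lower. The median log2 difference of the 10 genes was 1.15 at 24 months and 1.14 at 3 months, against 0.02 and 0.07 for all genes. In bulk RNA, fewer cells of a type and less RNA per cell cannot be told apart.

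**Figure D1:**
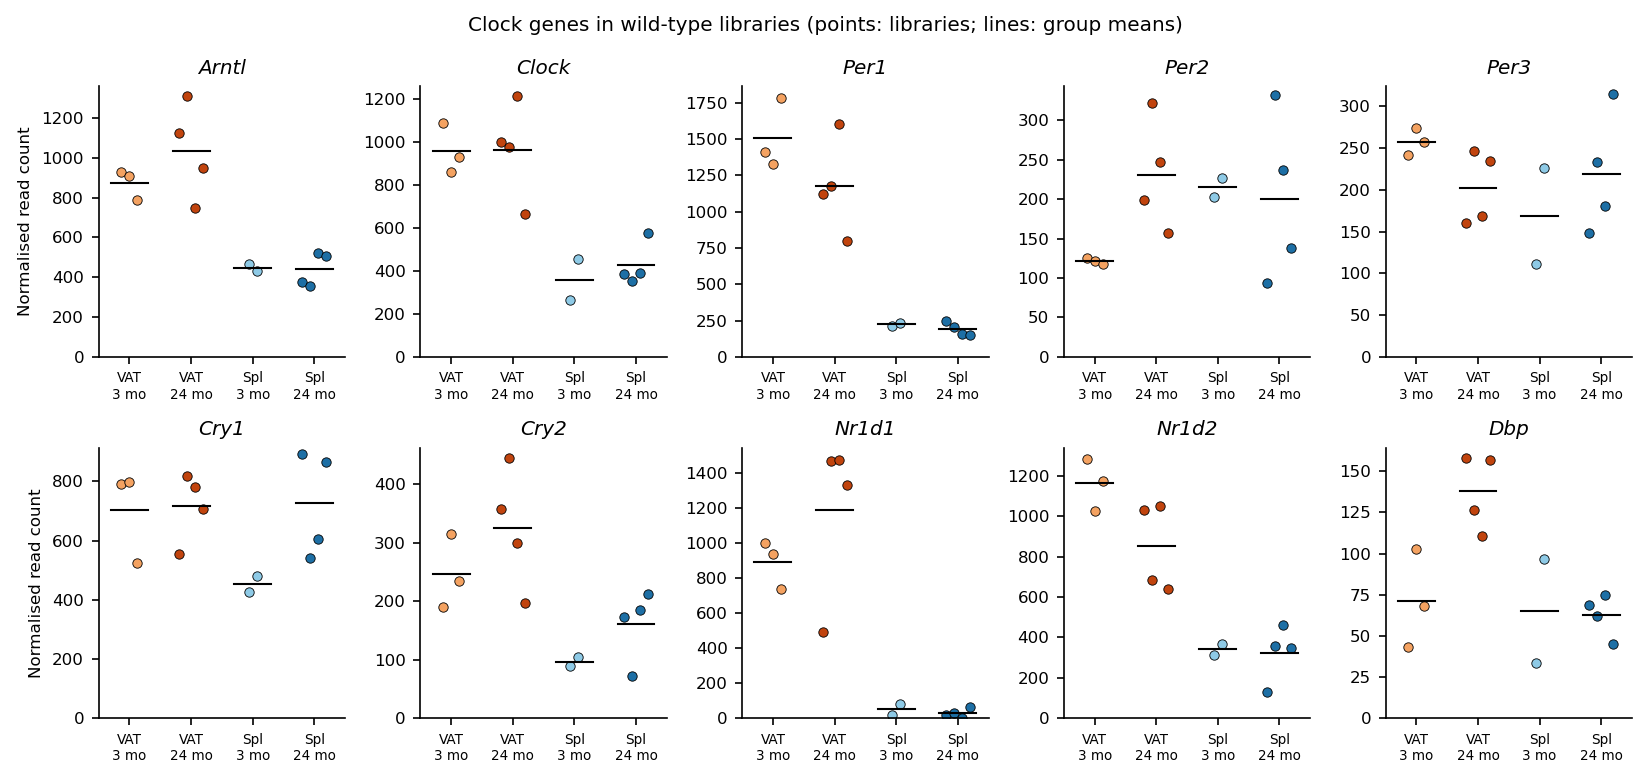
Normalised read count (vertical axes, from 0) of each clock gene in the 13 libraries of the wild-type table, by tissue (VAT, and spleen as Spl) and age in months (mo); points are libraries in order of replicate and lines are group means. Nr1d1 reads 493 to 1472 in VAT and 1 to 82.9 in spleen, whereas Per2, Per3, Cry1 and Cry2 overlap between the tissues at 24 months.

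The repressor Nr1d1, which encodes REV-ERB alpha (chromosome 11, 98767932 to 98775333, reverse strand in mm10), showed the largest difference of the 10 genes. In the wild-type libraries of VAT it read 998, 935 and 737 at 3 months and 493, 1467, 1472 and 1333 at 24 months. In spleen it read 19.3 and 82.9 at 3 months and 18.3, 28.1, 1 and 67.1 at 24 months. Every VAT library lay above every spleen library at both ages. The 1 in 24-month spleen replicate 3 stands for 0 recovered reads, with a 3-read limit of 2.33 normalised counts. The mean was 1191 ± 470.1 (SD, n = 4) in 24-month VAT and 28.6 ± 28.0 (SD, n = 4) in 24-month spleen, a log2 difference of 6.04 (95% confidence interval 4.29 to 7.78, adjusted p = 1.81e-05, limma). Without the spleen library at 1 the log2 difference was 5.02 (adjusted p = 3.98e-06), and without spleen replicate 4, the highest, it was 6.71. At 3 months the log2 difference was 4.42 (adjusted p = 0.00343, limma). The call was lost without 3-month spleen replicate 1 (log2 3.40, adjusted p = 0.0596), and without replicate 2 the log2 difference was 5.44.

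The exons of Nr1d1 overlap those of Thra, a thyroid hormone receptor gene on the other strand, over 263 bases, and the strand of counting is not given in the sources used here. Thra read 193, 151 and 308 in 3-month and 172, 159, 286 and 132 in 24-month VAT, 112 and 30.8 in 3-month spleen and 22.9, 184, 31.9 and 57.7 in 24-month spleen. It was higher in VAT at 24 months (log2 1.74, adjusted p = 0.0266, limma), a call lost under 5 of 15 alternatives (highest adjusted p = 0.108). At 3 months its log2 difference was 1.802 (adjusted p = 0.0771). The reads that the 2 genes could share were not separated, and the lowest Nr1d1 value in VAT exceeded the highest Thra value.

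The paralog Nr1d2, which encodes REV-ERB beta (chromosome 14, 18204054 to 18239127, reverse strand), was higher in VAT as well. In the wild-type libraries of VAT it read 1282, 1028 and 1175 at 3 months and 1031, 682, 1052 and 640.2 at 24 months. The spleen libraries gave 315 and 368 at 3 months and 130.0, 358, 463 and 348 at 24 months. The tissues did not overlap at either age. The log2 difference was 1.49 at 24 months (0.80 to 2.18, adjusted p = 0.00137) and 1.76 at 3 months (0.87 to 2.65, adjusted p = 0.00335), where the brackets give the 95% confidence interval.

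Arntl (chromosome 7, 113207465 to 113314126, forward strand), the activator that REV-ERB proteins repress, was also higher in VAT, so that both opposed transcripts stood higher in the same tissue. In the wild-type libraries of VAT it read 928, 908 and 787 at 3 months and 1124, 1314, 746 and 947 at 24 months. In spleen it read 466 and 431 at 3 months and 378, 358, 522 and 505 at 24 months. No VAT library fell to the level of a spleen library. The log2 difference was 1.22 at 24 months (0.77 to 1.66, adjusted p = 0.000164) and 0.96 at 3 months (0.39 to 1.53, adjusted p = 0.00917). The 3-month call was lost without spleen replicate 2 (log2 0.90, adjusted p = 0.0511).

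Clock (chromosome 5, 76209868 to 76304792, reverse strand), the partner of BMAL1, was higher in VAT at both ages. In the wild-type libraries of VAT it read 1086, 862 and 929.7 at 3 months and 1002, 975, 1213 and 664 at 24 months. Spleen libraries gave 263 and 455 at 3 months and 385, 352, 389.9 and 575 at 24 months. The tissues did not overlap at either age, and the highest spleen value, 575, came close to the lowest VAT value. VAT exceeded spleen by a log2 difference of 1.17 at 24 months (0.66 to 1.68, adjusted p = 0.000829) and 1.46 at 3 months (0.80 to 2.12, adjusted p = 0.00141).

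Among the period genes, whose proteins repress the activators, Per1 alone passed the test between tissues. Per1 (chromosome 11, 69095217 to 69109960, forward strand), which also responds to cyclic AMP and glucocorticoids, gave 1409, 1326 and 1784 in 3-month VAT and 1120.5, 1175, 1605 and 801 in 24-month VAT. In spleen it gave 212 and 234 at 3 months and 244, 204, 157 and 154 at 24 months. Every VAT library lay far above every spleen library. Their log2 difference was 2.61 at 24 months (2.10 to 3.11, adjusted p = 2.51e-07) and 2.74 at 3 months (2.09 to 3.40, adjusted p = 4.03e-06).

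Per2 (chromosome 1, 91415982 to 91459324, reverse strand) did not pass the test at either age. In the wild-type libraries of VAT it read 126, 121 and 118 at 3 months and 199, 322, 247 and 157 at 24 months. In spleen it read 202 and 227 at 3 months and 93.4, 332, 237 and 138 at 24 months. At 3 months every VAT library lay below both spleen libraries, and at 24 months the tissues overlapped. The log2 difference was -0.81 at 3 months (-1.90 to 0.27, adjusted p = 0.216) and 0.32 at 24 months (-0.52 to 1.16, adjusted p = 0.521). Per3 (chromosome 4, 151003652 to 151044665, reverse strand) read 242 to 274 in 3-month VAT, 160 to 247 in 24-month VAT, 111 to 227 in 3-month spleen and 148 to 314 in 24-month spleen. Its log2 difference was -0.08 at 24 months (-0.80 to 0.63, adjusted p = 0.858) and 0.70 at 3 months (-0.23 to 1.62, adjusted p = 0.214).

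The cryptochromes, partners of PER in repression, gave different calls, though the difference between them was not tested. Cry2 (chromosome 2, 92403646 to 92434043, reverse strand) read 190.2, 315 and 234 in 3-month VAT, 357, 444, 299.9 and 198 in 24-month VAT, 89.5 and 104 in 3-month spleen and 173, 72.2, 185 and 212 in 24-month spleen. It overlapped between tissues at 24 months and not at 3 months. The log2 difference was 1.06 at 24 months (0.24 to 1.88, adjusted p = 0.0327) and 1.31 at 3 months (0.25 to 2.37, adjusted p = 0.0454). Its exons share 295 bases with D930015M05Rik, and those of Arntl 33 with Gm45355, both on the opposite strand and not analysed here, so such reads could not be separated. Both calls of Cry2 were fragile. At 24 months it was lost with only the compared groups in the fit (adjusted p = 0.0503) and without VAT replicate 1, 2 or 3 or spleen replicate 2 (0.0578 to 0.106). At 3 months it was lost whichever of the 5 libraries was left out (0.0522 to 0.162), with edgeR (0.0505) and after quantile normalisation (0.0666). Cry1 (chromosome 10, 85131700 to 85185064, reverse strand) read 524 to 796 in 3-month VAT, 554 to 819 in 24-month VAT, 426 to 480 in 3-month spleen and 543 to 891 in 24-month spleen. Its log2 difference was -0.003 at 24 months (-0.48 to 0.47, adjusted p = 0.993) and 0.61 at 3 months (-0.002 to 1.22, adjusted p = 0.101), the latter with no overlap and called without VAT replicate 3 (adjusted p = 0.0468).

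Dbp (chromosome 7, 45705088 to 45710203, forward strand), a transcription factor that carries the E-box rhythm to D-box genes, did not pass the test at either age. In the wild-type libraries of VAT it read 43.0, 103 and 68.1 at 3 months and 158, 127, 110.5 and 157 at 24 months. In spleen the values were 33.6 and 97.0 at 3 months and 68.7, 61.9, 74.7 and 45.0 at 24 months. At 24 months the tissues did not overlap, and at 3 months they did. The log2 difference of 1.14 at 24 months (0.17 to 2.11) lay at the threshold (adjusted p = 0.05, not called) and was called with a pseudocount of 10 (adjusted p = 0.0358), with the compared groups only (0.0324) and with DESeq2 (0.0409). At 3 months it was 0.23 (-1.03 to 1.48, adjusted p = 0.785). Counting groups that do not overlap, 6 of the 10 genes were higher in VAT at 24 months, where 23.5% of all genes were. At 3 months, with 3 libraries against 2, 8 were higher and 1, Per2, was lower, where 33.0% of all genes were higher and 29.4% lower.

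**Figure D2:**
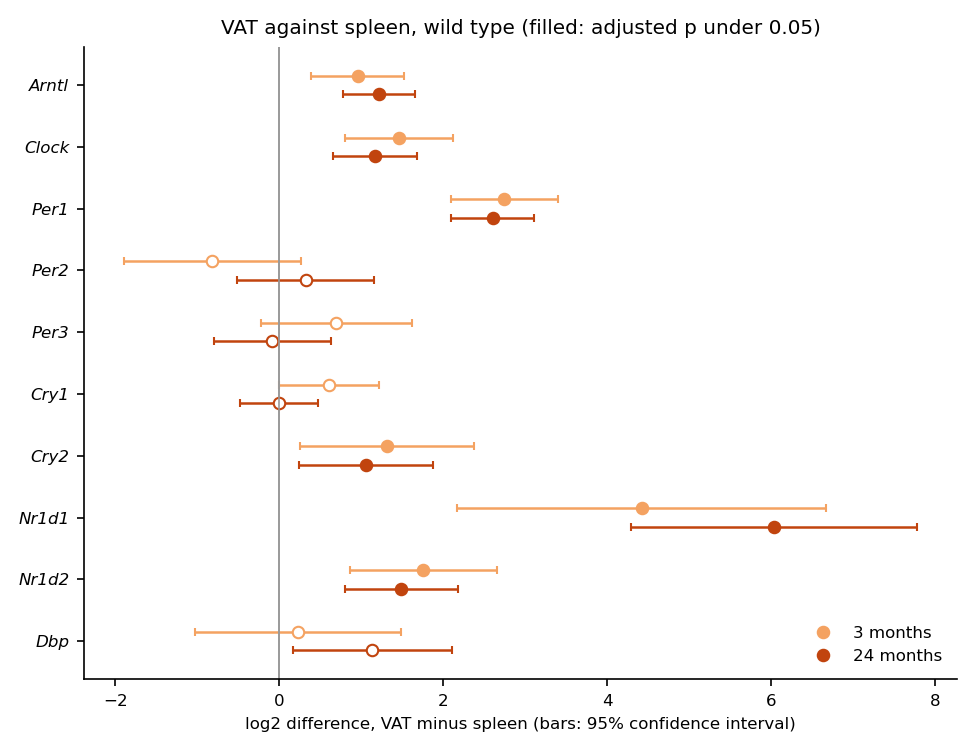
Log2 difference of VAT minus spleen in wild-type libraries (horizontal axis; bars are 95% confidence intervals) for each clock gene at 3 and 24 months; filled points have an adjusted p under 0.05. Nr1d1 lies at 4.42 and 6.04, Per1 at 2.74 and 2.61, and the intervals of Per2, Per3 and Cry1 include 0 at both ages.

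Markers of other cells differed between the tissues in the same comparison. The 4 fibroblast markers (Col1a1, Col1a2, Pdgfra and Dcn) summed to 23330 to 72200 in wild-type VAT and 6.891 to 194 in wild-type spleen, and all 4 were higher in VAT at both ages. Of the 4 adipocyte markers, whose sums were 456.9 to 1354 in VAT and 4 to 30.32 in spleen, Plin1 and Cidec stood at 1, the lowest value of the table, in every spleen library. The 6 neutrophil markers summed to 1707 to 8787 in VAT and 121300 to 496800 in spleen, and the 6 B cell markers to 574 to 8411 in VAT and 71260 to 130100 in spleen. In each of these 2 lists all 6 genes were lower in VAT at both ages, with Elane at 1 in every 24-month and Pax5 in every 3-month VAT library. All 10 macrophage markers were higher in VAT at 24 months and 9 at 3 months. Of the 4 markers of red pulp macrophages, the iron-recycling macrophages of the spleen, 3 were lower and 1 higher in VAT at 24 months, and 3 lower and none higher at 3 months. Of the 4 monocyte markers 3 were lower and 1 higher at both ages. The part of these other cells in the tissue differences of the clock genes was not tested.

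Immediate early genes and genes that answer to stress hormones or heat also differed between tissues, and Per1 is a known target of stress hormones. Of all genes 26.6% were higher and 22.5% lower in VAT at 24 months, and 23.2% and 18.7% at 3 months. All 21 immediate early genes were higher in VAT at both ages, with a median log2 difference of 3.81 at 24 months and 3.36 at 3 months. Fosb, for example, stood at 11520 ± 3822 in VAT and 28.5 ± 25.1 in spleen at 24 months, and Nr4a2 at 1796 ± 316 and 16.8 ± 19.5 (SD, n = 4 each). Of 12 glucocorticoid-responsive genes 7 were higher and 2 lower at 24 months, and 6 and 2 at 3 months. Errfi1, a feedback inhibitor of the EGF receptor, was among the higher ones (log2 5.31 and 4.81), and Lcn2, an iron-carrier protein that neutrophils also make, was lower (log2 -7.87 and -9.04). Without 3-month spleen replicate 1 or 2 the 3-month value of Errfi1 was 4.22 or 5.40. Of 12 heat shock and temperature genes 7 were higher and 2 lower at 24 months, and 7 were higher and none lower at 3 months. Hspa1a, an inducible chaperone, stood at 14400 ± 6326 in VAT and 358 ± 194 in spleen at 24 months. The part of such responses in the Per1 difference was not tested.

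Other genes of the clock network, listed by textbook role, were counted in the same way. Of 24 listed regulators 21 were tested, and 9 were higher and 3 lower in VAT at 24 months, with a median log2 difference of 0.32. At 3 months 7 were higher and 3 lower (median 0.23). These 12 and 10 calls of 21 lie near the shares of all genes called, 49.1% and 41.9%. Ciart, also called CHRONO, a repressor of BMAL1 and CLOCK that is itself switched on through E-boxes, read 2684, 2865 and 2024 in 3-month and 1844, 2385, 2107 and 1813 in 24-month VAT. In spleen it read 48.8 and 7.05 at 3 months and 28.4, 26.2, 31.1 and 32.3 at 24 months, far below every VAT library. Its log2 difference was 6.06 at 24 months (adjusted p = 1.02e-08) and 6.96 at 3 months (adjusted p = 8.17e-08). The 3-month value was 8.28 without spleen replicate 1 and 5.65 without replicate 2.

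Rora, an activator that competes with REV-ERB for the same element, was higher in VAT at both ages. It read 1073, 1109 and 1013 in 3-month VAT, 984, 451, 910.2 and 557 in 24-month VAT, 6.10 and 58.2 in 3-month spleen and 154, 239.9, 159 and 80.7 in 24-month spleen. Its log2 difference was 2.22 at 24 months (adjusted p = 0.0025) and 5.70 at 3 months (adjusted p = 7.24e-06), the latter 4.17 without spleen replicate 1 and 7.23 without replicate 2. Also higher at 24 months were Npas2, a relative of CLOCK (25.2 ± 18.5 in VAT and 2.24 ± 2.47 in spleen), and Bhlhe40, a repressor of E-boxes (log2 0.99). Nfil3, the repressor of D-boxes (log2 1.21), and Sirt1, a deacetylase that acts on clock proteins (log2 1.90), were higher too. So were Usp2, a deubiquitinase (log2 2.31), and Fbxw11, part of a ubiquitin ligase (log2 0.58). Bhlhe41, paralog of Bhlhe40 (log2 -0.98), Nono (log2 -0.46) and the kinase gene Gsk3b (log2 -0.44) were lower. At 3 months Rora, Bhlhe40, Nfil3, Ciart, Sirt1, Npas2 and Fbxw11 were higher, and Prkaa1, Kdm5a and Gsk3b were lower. Of the 3-month calls those of Npas2 and Fbxw11 were each lost under 7 of 12 alternatives, that of Kdm5a under 4 and that of Gsk3b under 3, and the 24-month call of Gsk3b was lost under 4 of 15.

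Of 18 listed output genes of the clock 16 were tested, and 10 were higher and none lower in VAT at 24 months, where 26.6% of all genes were higher and 22.5% lower, with a median log2 difference of 1.10. At 3 months 9 were higher and 1, Tsc22d3, was lower (median 1.49), where 23.2% of all genes were higher and 18.7% lower, and the call of Tsc22d3 was lost without spleen replicate 1 (adjusted p = 0.191). The largest differences in this list were those of Ccl2, a chemokine for monocytes (log2 10.59 and 10.32 at 24 and 3 months), Cxcl12, a chemokine of stroma (6.65 and 5.12), and Cdkn1a, a cell cycle inhibitor (5.44 and 5.47). Klf9 (3.46 and 2.95), Klf10 (2.75 and 1.71), Dnajb4 (3.49 and 2.65) and Nampt (0.79 and 0.49), which encodes an enzyme of NAD synthesis, were also higher at both ages. The 3-month call of Nampt was lost under 8 of 12 alternatives. Without 3-month spleen replicate 1 or 2 the 3-month value was 6.01 or 4.23 for Cxcl12, 6.41 or 4.54 for Cdkn1a and 2.32 or 1.11 for Klf10. Bhlhe40, Nfil3 and Usp2, all called in VAT at 24 months, stand in both of these lists. Ciart was listed among the outputs under its former symbol, Gm129, and was counted only as a regulator.

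The comparison of ages asked whether the clock transcripts of wild-type sorted cells differ between 3 and 24 months. In VAT 0 of the 10 genes passed the test, where 5.4% of all genes did (limma), and 0 had an unadjusted p under 0.05, where 20.6% of all genes did. None was called by edgeR or DESeq2 either. The median absolute log2 difference of the 10 genes was 0.37, against 0.36 for all genes. Per2 and Dbp came nearest. Per2 gave 122 ± 3.81 (SD, n = 3) at 3 months and 231 ± 70.7 (SD, n = 4) at 24 months, a log2 difference of 0.87 (-0.04 to 1.78, adjusted p = 0.265, 0.13 to 0.499 over the alternatives). Dbp gave 71.4 ± 30.2 (SD, n = 3) and 138 ± 23.4 (SD, n = 4), a log2 difference of 1.01 (-0.04 to 2.06, adjusted p = 0.26, 0.139 to 0.562). For both genes every 24-month library lay above every 3-month library, as in 12.2% of all genes.

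Dbp shares 539 exon bases with Sphk2, a sphingosine kinase gene on the opposite strand, whose level was also higher at 24 months. Sphk2 read 769, 819.6 and 675 in 3-month and 1082, 1526, 1235 and 1274 in 24-month VAT, all above Dbp. The difference was 0.75 on the log2 scale (adjusted p = 0.0194, limma), a call lost without 3-month replicate 1 (0.0589) or 3 (0.111) or 24-month replicate 2 (0.0619). At 3 months Sphk2 read 1545 and 1355 in spleen and was lower in VAT (log2 -0.94, adjusted p = 0.00181, limma). Whether Sphk2 reads entered the Dbp counts, in the comparison of ages or of tissues, was not tested. Fibroblast marker sums were 23330 to 25250 at 3 months and 45740 to 72200 at 24 months, with 0 of 4 genes called. B cell marker sums were 574 to 781.2 at 3 months, with Pax5 at 1 throughout, and 1756 to 8411 at 24 months, with 5 of 6 genes called higher. Macrophage sums were 801600 to 883600 at 3 months and 1016000 to 1056000 at 24 months (1 of 10 called higher). Plasma cell sums were 11940 to 20900 and 36360 to 66050 (2 of 5 higher). Monocyte sums were 23760 to 29890 and 8123 to 14740 (1 of 4 lower). Erythroid sums were 3258 to 5904 and 218.5 to 1850 (3 of 5 lower). Endothelial sums were 1131 to 1334 and 408.4 to 634.8 (1 of 4 lower). The part of these cells in the Per2 and Dbp values was not tested.

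The other 8 clock genes overlapped between ages in VAT. Their log2 differences were 0.21 for Arntl (-0.26 to 0.69), -0.02 for Clock (-0.57 to 0.53), -0.39 for Per1 (-0.94 to 0.16) and -0.37 for Per3 (-1.14 to 0.40). Cry1 differed by 0.03 (-0.48 to 0.55) and Cry2 by 0.37 (-0.52 to 1.25). The interval of Nr1d1 was the widest, at 0.31 (-1.58 to 2.19), and Nr1d2 differed by -0.48 (-1.23 to 0.27). The bounds for Arntl, Clock and Cry1 all lay within 0.69 of 0, whereas those of Per3, Cry2, Nr1d1 and Nr1d2 passed 1 in at least 1 direction.

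Age in spleen gave a like count. None of the 10 genes passed the test, where 6.2% of all genes did, and 1, Cry1, had an unadjusted p under 0.05, where 22.0% did. None was called by edgeR or DESeq2. Cry1 read 426 and 480.4 at 3 months and 891, 543, 604 and 865 at 24 months, with no overlap, as in 12.3% of all genes. The log2 difference was 0.65 (0.07 to 1.23, adjusted p = 0.176). Of the others Nr1d1 had the largest difference, -1.31 (-3.45 to 0.83), and it rests on values of 1 to 82.9. Arntl differed by -0.04 (-0.58 to 0.50), Clock by 0.27 (-0.36 to 0.90), Per1 by -0.25 (-0.87 to 0.37) and Per2 by -0.27 (-1.29 to 0.76). Per3 differed by 0.41 (-0.47 to 1.28), Cry2 by 0.62 (-0.38 to 1.63), Nr1d2 by -0.21 (-1.06 to 0.64) and Dbp by 0.10 (-1.09 to 1.29). With 2 libraries at 3 months these intervals are wide. In the same libraries neutrophil marker sums were 435600 to 496800 at 3 months and 121300 to 230700 at 24 months (3 of 6 genes called lower), monocyte sums 76940 to 77090 and 30840 to 45420 (1 of 4 lower), and NK cell sums 5044 to 5234 and 1374 to 1848 (1 of 5 lower). Plasma cell sums were 61760 to 65210 and 103200 to 190700 (3 of 5 higher). The part of these cells in the Cry1 value was not tested.

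Among the 21 regulators tested, 1 fell with age in VAT, where 3.17% of all genes fell, and none rose. Nfil3, the D-box repressor that opposes DBP, went from 4749, 4475 and 4642 at 3 months to 1174, 1251, 1388 and 1044 at 24 months, with no overlap. It fell by 1.93 on the log2 scale (adjusted p = 0.000255, limma), and the call held under all 15 alternatives, with 0.00361 the highest adjusted p. In spleen Nfil3 read 704 and 879.7 at 3 months and 312, 629.8, 611 and 619.8 at 24 months, and the test of the difference between tissues gave a log2 of -1.34 (adjusted p = 0.046). The same test called Rora (log2 -3.48, adjusted p = 0.0422) and no other listed regulator or output gene, and each of these 2 calls was lost under 13 of 19 alternatives (highest adjusted p = 0.199 and 0.188). The value of Rora there was -1.96 without 3-month spleen replicate 1 and -5.01 without replicate 2. In spleen, where 2.8% of all genes rose with age, 2 regulators did so, Rora (log2 2.86, adjusted p = 0.0194) and Bhlhe41 (log2 1.26, adjusted p = 0.0494). The call of Rora was lost under 4 of 14 alternatives, among them without 3-month replicate 1 (log2 1.33, adjusted p = 0.231; 4.39 without replicate 2), and that of Bhlhe41 under 8 of 14. Of the output genes none rose and 1, Nfil3 again, fell in VAT, and none changed in spleen, where 3.4% of all genes fell.

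Whether the age difference of a clock gene differed between VAT and spleen was tested as an interaction. None of the 10 genes passed (lowest adjusted p = 0.404, limma), where 2.74% of all genes did, 0 had an unadjusted p under 0.05, where 16.7% did, and edgeR and DESeq2 called none. Per2 had the lowest p, with a log2 of 1.14 (-0.24 to 2.51). The age comparisons and the tissue comparisons share the wild-type libraries of both ages.

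**Figure D3:**
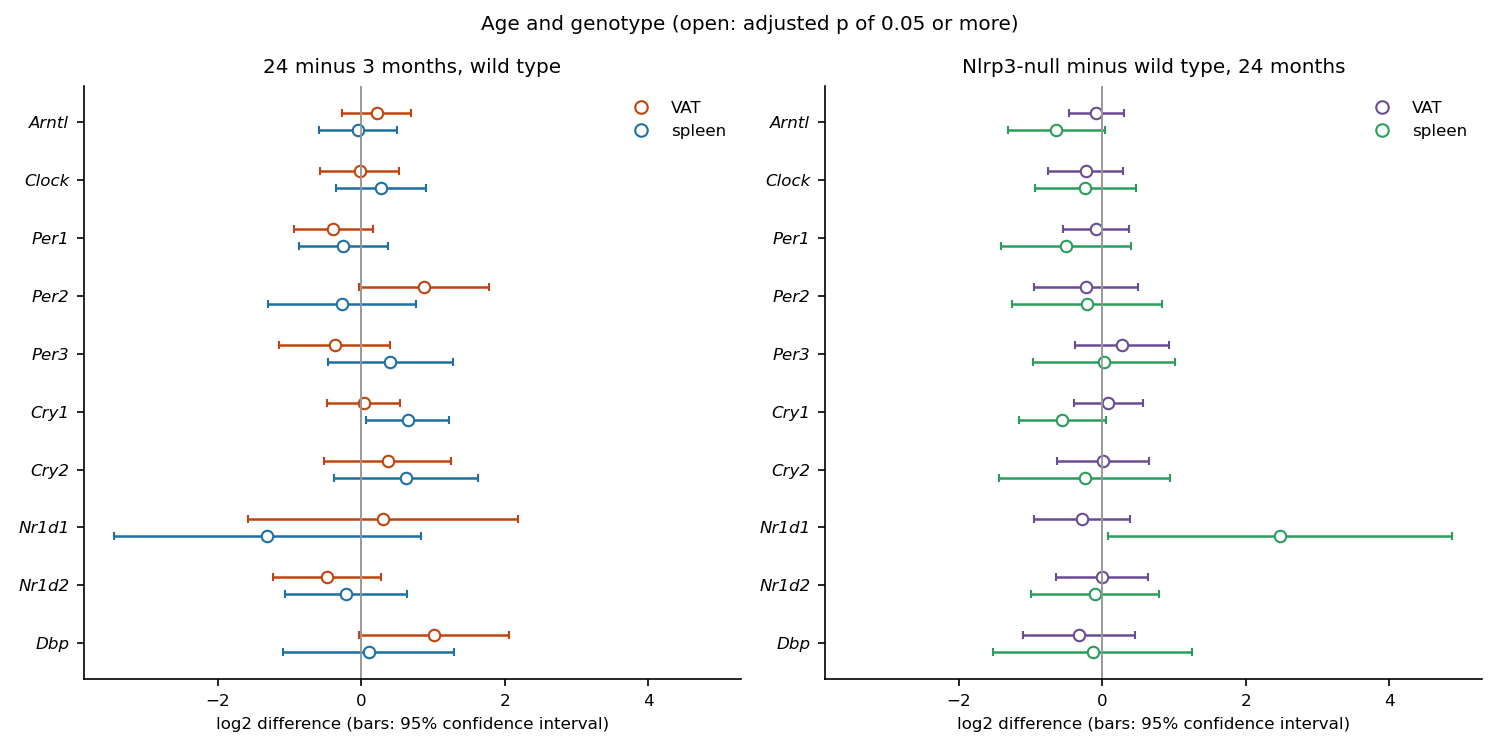
Log2 differences (horizontal axes; bars are 95% confidence intervals) of each clock gene between ages in wild-type libraries (left) and between Nlrp3-null and wild-type libraries at 24 months (right), in VAT and spleen; open points have an adjusted p of 0.05 or more. All 40 points are open, and the intervals that leave out 0 are those of Cry1 with age and Nr1d1 with genotype, both in spleen.

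The comparison of genotypes asked whether loss of Nlrp3 changes the clock transcripts of sorted cells from old mice. In VAT 0 of the 10 genes passed the test (lowest adjusted p = 0.929, limma), where 0.00764% of all genes did, which is Nlrp3 alone. None had an unadjusted p under 0.05, where 6.09% of all genes did, none was apart between groups, where 3.48% were, and edgeR and DESeq2 called none. This comparison shares its wild-type libraries with that of age. Arntl read 1055, 1216, 694 and 894 in wild-type and 916, 973, 736 and 956 in null VAT, a log2 difference of -0.09 (-0.47 to 0.30). Nr1d1 read 462, 1358, 1370.1 and 1258 and 778, 1276, 778 and 636, a difference of -0.28 (-0.95 to 0.38). In both genes the groups overlapped. The differences of the other 8 genes ran from -0.33 for Dbp to 0.27 for Per3, and their intervals from -1.11 to 0.93. Per2 read 187, 298, 230.2 and 148 in wild-type and 187, 329, 130.0 and 126 in null VAT, and Dbp 148, 117, 103 and 148 and 141, 109, 92.3 and 74.2. Macrophage marker sums were 951800 to 996600 in wild-type and 750300 to 817900 in null VAT, without overlap (0 of 10 genes called). Sums of the other marker lists overlapped between genotypes in VAT. The part of cell make-up in the clock gene values was not tested.

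In spleen 0 of the 10 genes passed (lowest adjusted p = 0.793), where 0.00766% of all genes did, again Nlrp3 alone. An unadjusted p under 0.05 was found for 1, Nr1d1, where 6.19% of all genes had one. No clock gene was apart between groups, where 7.55% of all genes were, and edgeR and DESeq2 called none. Nr1d1 read 19.9, 30.7, 1 and 73.1 in wild-type and 83.3, 53.0 and 210.2 in null spleen. The groups overlapped, and the log2 difference was 2.48 (0.08 to 4.88, adjusted p = 0.793, 0.535 to 1 over the alternatives). Without wild-type replicate 3, the library at 1, it was 1.43 (adjusted p = 0.981). Arntl read 411, 391, 568 and 551 in wild-type and 446, 235 and 267 in null spleen, a difference of -0.64 (-1.31 to 0.03, adjusted p = 0.807). Cry1 read 969, 593, 657 and 944 and 713, 531 and 383, a difference of -0.56 (-1.16 to 0.05, adjusted p = 0.812). These 3 genes thus had the lowest p-values without passing the test. The other 7 differed by -0.51 (Per1) to 0.03 (Per3), with intervals from -1.53 to 1.26. In the same libraries the neutrophil markers summed to 131900 to 250900 in wild-type and 204800 to 517700 in null spleen, with 0 of 6 called. Macrophage marker sums did not overlap, at 188500 to 275300 in wild-type and 303200 to 359600 in null spleen (0 of 10 genes called). Nor did monocyte sums, at 33540 to 49540 and 63310 to 99760 (0 of 4 called). The part of these cells in the clock gene values was not tested. Of the tested regulators and outputs of the clock, 0 were called in either genotype comparison.

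**Figure D4:**
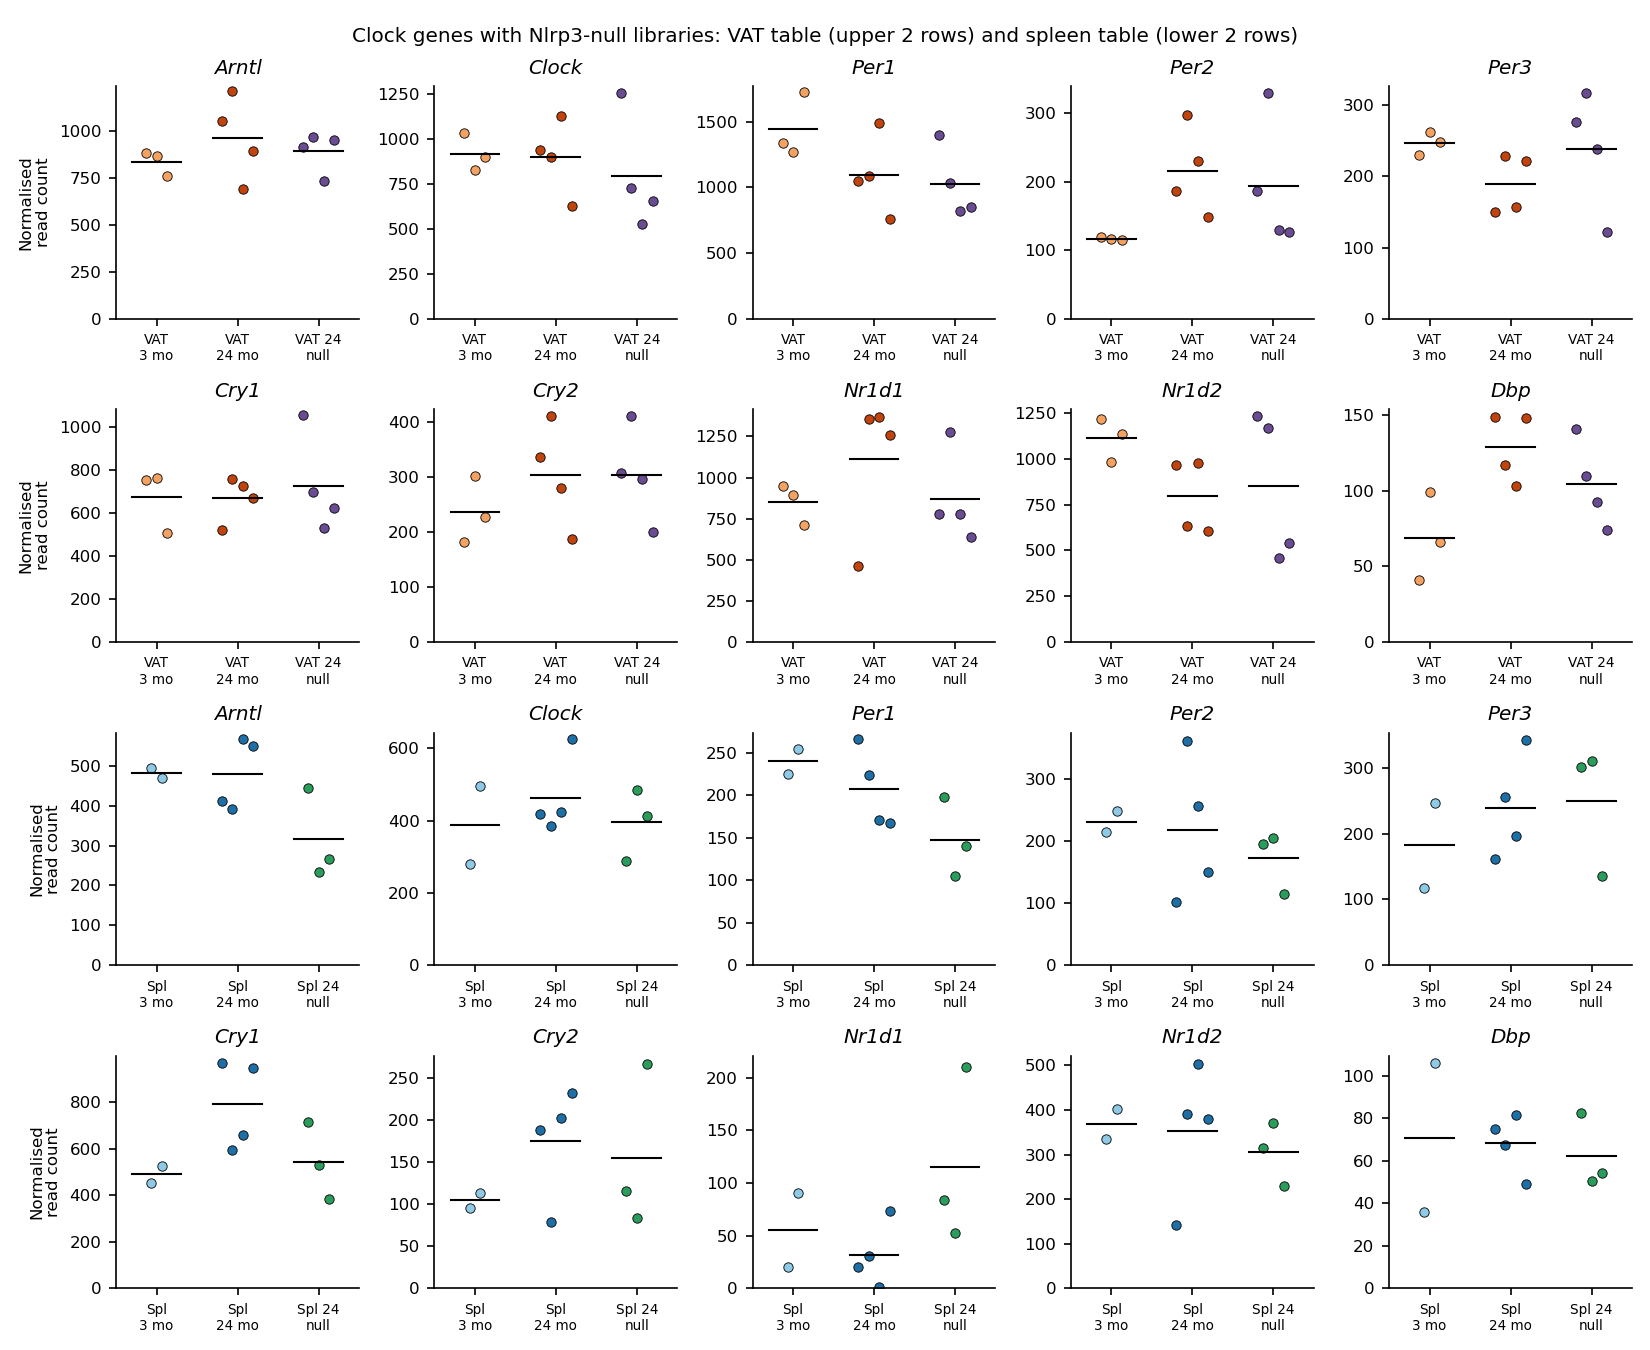
Normalised read count (vertical axes, from 0) of each clock gene in the VAT table (upper 2 rows) and the spleen table (lower 2 rows) for wild-type libraries of 3 and 24 months (mo) and Nlrp3-null libraries of 24 months (null); points are libraries in order of replicate and lines are group means. Null and 24-month wild-type libraries overlap in every panel, and the Nr1d1 panel of spleen runs from 1 to 210.

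Hour of harvest is not among the labels, so its part could be described only through the genes themselves. As a descriptive measure, log2 Arntl minus the mean log2 of Nr1d1, Nr1d2, Dbp and Per3 was taken in each library, since these transcripts peak at opposite times. In the VAT table it was 1.44, 1.16 and 1.16 at 3 months, 1.73, 1.64, 0.85 and 1.17 in wild type at 24 months and 1.05, 1.02, 1.30 and 2.01 in null libraries. The group means were 1.25 ± 0.16 (SD, n = 3), 1.35 ± 0.41 (SD, n = 4) and 1.35 ± 0.46 (SD, n = 4), and all 3 groups overlapped. In the spleen table it was 2.73 and 1.41 at 3 months, 2.41, 1.69, 3.16 and 1.89 in wild type at 24 months and 1.47, 0.82 and 0.95 in null libraries. The means were 2.07 ± 0.93 (SD, n = 2), 2.29 ± 0.66 (SD, n = 4) and 1.08 ± 0.35 (SD, n = 3), and the null libraries all lay below the 24-month wild-type libraries. With Nr1d1 left out of the measure, these 2 groups overlapped, at 1.77, 1.04, 1.497 and 1.56 in wild-type and 1.16, 0.38 and 1.16 in null spleen. A change in level of 1 gene and a shift in hour cannot be told apart in this measure, and whether the hour of harvest differed between groups was not tested.

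**Figure D5:**
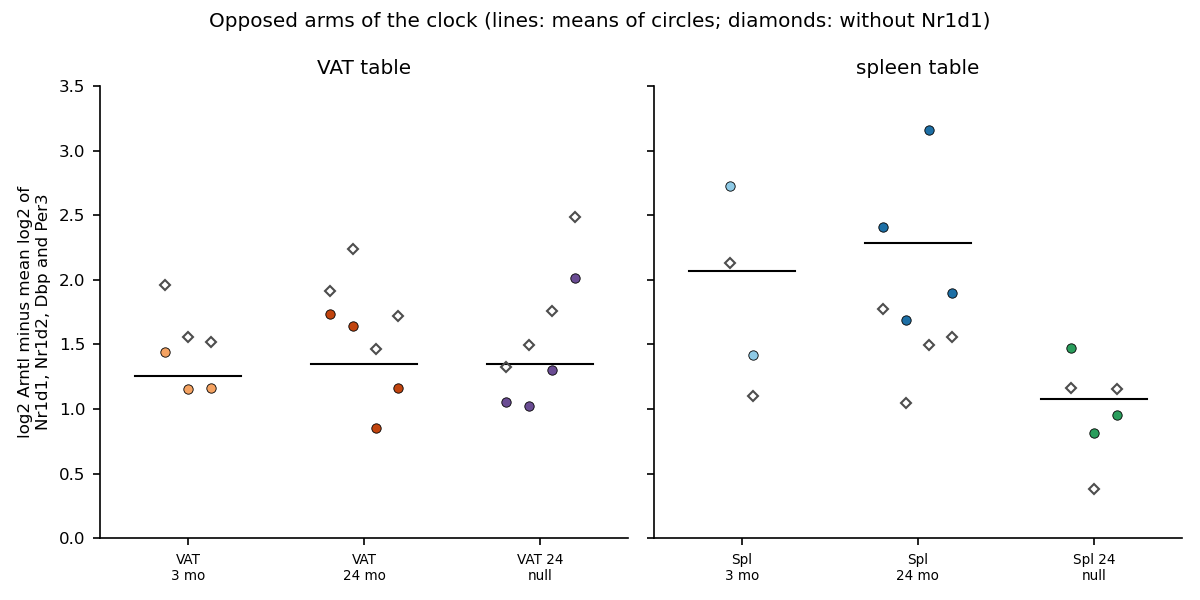
Log2 of Arntl minus the mean log2 of Nr1d1, Nr1d2, Dbp and Per3 (vertical axis, log2 units) per library, for VAT (left) and spleen (Spl, right) by age in months (mo) and genotype; circles use all 4 genes, lines are the means of the circles, and diamonds leave out Nr1d1. The VAT groups overlap around means of 1.25 to 1.35, and null spleen lies at 0.82 to 1.47 against 1.69 to 3.16 in wild type of the same age.

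The spread of the clock genes between libraries of 1 group was set beside that of all genes, since an uneven hour within a group would add to it. In the VAT libraries of the wild-type table the SD of log2 values within groups ran from 0.25 (Per3) to 0.61 (Nr1d1), against a median of 0.34 over all 13702 genes. These SDs stood at percentiles 34 to 74 of all genes. In the spleen libraries they ran from 0.25 (Arntl) to 2.02 (Nr1d1), against a median of 0.39, at percentiles 27 to 95. Nr1d1 was thus the most variable of the 10 in both tissues. In VAT its SD includes 24-month replicate 1, which read 493 where the others of its group read 1333 to 1472. The SD was not taken without that library. In spleen its SD rests on counts of 0 to 94 recovered reads. The part of counting error in that SD was not tested.

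Arntl and its opposed transcripts were also set side by side within groups. In the wild-type table Per1 lay on the opposite side of its group mean to Arntl in 11 of 13 libraries, Dbp in 9 and Nr1d1 in 8, and the others in 4 (Cry2) to 7. In the VAT table Arntl and Nr1d1 lay on opposite sides of their group means in 5 of 11 libraries, and the other clock genes opposed Arntl in 3 (Cry2) to 6 (Per1 and Per3). In the spleen table the counts ran from 4 of 9 (Nr1d2) to 7 of 9 (Nr1d1). Deviations from a group mean balance within the group, so its libraries are not independent in these counts. The counts over all genes were not taken, so these cannot tell whether timing was opposed or not. Over the 11 libraries of the VAT table, which share tissue and sequencing table, the genes whose deviations from group means were most like those of Arntl were Slc13a2, Sbds, Kbtbd3, 8430408G22Rik and Mkks (Pearson r 0.88 to 0.98). The most opposed were Sft2d3, Senp1, Catip, Sart1 and Nudt6 (r -0.92 to -0.87). Among 13089 genes ranked by r with Arntl, the clock genes stood between 1789 (Per2) and 9665 (Per1), with r of -0.21 to 0.36, so none was near either end. These are descriptions over few libraries, chosen from many genes.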

How the data were processed

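RNA was measured in 20 libraries of sorted cells from 6 groups. The deposited values are a signal per gene and library, in 3 tables. The authors normalised them: nearly all values above 1 are whole multiples of 1 step per library, the inverse of a size factor, and the lowest value is 1. The submitters' processing notes name CASAVA 1.8.2, TopHat, Partek, DESeq2 and the mm10 genome. What each program did, the counter and its strand setting are not given in the sources used here. Per the labels' protocols, mRNA was taken with oligo-dT beads, libraries kept the strand by dUTP, and sorted cells stood on ice before lysis.

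Whole reads were recovered from the steps (at least 99.777% of values whole within 0.05 read) for edgeR and DESeq2. Each table was fitted once in limma 3.58.1 (R 4.3.3) with a trend, on log2 values with a pseudocount of 1, for genes with a mean of at least 10 (13702, 13090 and 13053 genes in the wild-type, VAT and spleen tables). Fold changes are on that log2 scale, and those of low genes depend on the method. Nr1d1 between tissues at 24 months gave 6.04 in limma, 5.16 with a pseudocount of 10, 5.35 in edgeR and 5.40 in DESeq2. Tests were two-sided, with a Benjamini-Hochberg adjusted p over all genes tested and a threshold of 0.05. Intervals are 95% and not adjusted. The alternatives were a pseudocount of 10, no filter, a replicate block, the compared groups only, edgeR 4.0.16, DESeq2 1.42.0, quantile normalisation, the other table of the same libraries, and leaving out each library. Scripts were tested on simulated data.

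The members, gene lists and alternatives were chosen with earlier results of these data known. Named were the 10 members, called genes of the regulator and output lists, up to 3 called genes of each other list (1 called regulator is not reported here), Nlrp3 and the 5 genes most and least like Arntl. Thra and Sphk2 were added for their overlap with members. Gene coordinates and lengths come from GENCODE vM21 (mm10).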

Additional observations from a re-analysis of the deposited data

Results flagged for a closer look

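In groups of 4 libraries, the highest or lowest value was set against the others by Dixon's gap test, over 30 pairs of gene and group. Chance flags about 1 in 20 such groups, and 2 of the 30 were set apart. Nr1d1 read 492.5 in 24-month wild-type VAT replicate 1, the lowest of 4, where the others read 1333 to 1472. The same library stood apart on the second principal component of the VAT table. Without it the log2 difference of Nr1d1 between ages in VAT was 0.69 (adjusted p = 0.734, limma), against 0.31 with it. Clock read 574.8 in 24-month wild-type spleen replicate 4, the highest of 4, where the others read 352 to 389.9. Without it the log2 difference of Clock between tissues at 24 months was 1.32 (adjusted p = 0.000465), against 1.17 with it.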

How the results depend on the processing

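Of 12 calls among the 10 clock genes (6 in each tissue comparison), 8 were kept under all alternatives run, and none turned direction. Over all alternatives 4 to 7 clock genes were called between tissues, and 0 with age, with genotype or in the interaction. Same-numbered libraries of different groups had correlations of deviations between -0.045 and 0.077 (wild-type table), -0.146 and 0.24 (VAT) and -0.023 and 0.048 (spleen). For differently numbered libraries the ranges were -0.071 to 0.089, -0.292 to 0.161 and -0.062 to 0.062. Whether replicate numbers pair the libraries cannot be told from so few libraries per group. In the replicate block 5 clock genes were called at 24 months and 5 at 3 months, with Cry2 lost at both ages (adjusted p = 0.0563 and 0.0902). Counts over all genes ranged from 216 to 1225 for age in VAT (740 as reported), 180 to 1429 in spleen (850), 5991 to 7039 and 4398 to 5802 for tissue at 24 and 3 months (6726 and 5745), 123 to 798 for the interaction (375), and 1 to 29 and 1 to 16 for genotype in VAT and spleen (1 each).

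Uncalled differences turned direction in 23 results, whose reported sizes reached 0.41 (Per3 with age in spleen). For age in VAT the log2 difference was 0.0094 (edgeR) and 0.004 (DESeq2) for Clock, and -0.0134 (replicate block), -0.0117 (quantile normalisation) and -0.0025 (VAT table) for Cry1. It was -0.0815 for Nr1d1 in the replicate block. For age in spleen Dbp gave -0.0538 (edgeR), -0.065 (DESeq2) and -0.1498 (quantile), and for tissue at 3 months -0.147 (quantile). For genotype in VAT Cry2 gave -0.05 (quantile), and Nr1d2 0.0996 (edgeR) and 0.0984 (DESeq2). The cause was not tested.

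Leaving out each library in turn, the log2 difference ranged as follows. For age in VAT it ran from -0.14 to 0.15 for Clock and -0.16 to 0.15 for Cry1. For age in spleen it ran from -0.13 to 0.0495 for Arntl, -0.12 to 0.66 for Clock, -0.56 to 0.0431 for Per2, -0.11 to 0.92 for Per3, -0.43 to 0.18 for Nr1d2 and -0.65 to 0.85 for Dbp. Between tissues it ran from -0.25 to 0.11 for Per3 and -0.13 to 0.11 for Cry1 at 24 months, and -0.52 to 0.98 for Dbp at 3 months. In the interaction it ran from -0.68 to 0.10 for Clock and -0.30 to 0.0339 for Per1. For genotype in VAT it ran from -0.23 to 0.0354 for Arntl, -0.26 to 0.0710 for Per1, -0.11 to 0.22 for Cry1, -0.20 to 0.20 for Cry2 and -0.23 to 0.25 for Nr1d2. For genotype in spleen it ran from -0.53 to 0.0808 for Per2, -0.18 to 0.41 for Per3, -0.73 to 0.11 for Cry2 and -0.49 to 0.12 for Nr1d2. Where 1 library of 3-month spleen remained, limma's spread came from the other groups, so that library is assumed to vary like them. Nr1d1 in spleen rests on 0 to 94 recovered reads in wild-type and 44 to 217 in null libraries.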

Other observations

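In VAT 2 of 21 immediate early genes fell from 3 to 24 months and none rose (limma, adjusted p under 0.05), where 3.17% of all genes fell. Fosl2, an AP-1 subunit, went from 13270 ± 1423 (SD, n = 3) to 6757 ± 1759 (SD, n = 4), a log2 change of -1.01 that was not called without 3-month replicate 3 (adjusted p = 0.0642). Crem, a cyclic AMP-responsive repressor, went from 11630 ± 240.5 to 4105 ± 686, a log2 change of -1.52 that was not called whichever 3-month library was left out (0.05 to 0.0763). In spleen, where 3.4% of all genes fell, 3 of the 21 fell and none rose: Fosl2 (log2 -1.76, called under all 14 alternatives), Nr4a1 (log2 -0.90) and Atf3 (log2 -1.14). The last 2 were lost under 6 and 5 of 14 alternatives, among them without 3-month replicate 1 (adjusted p = 0.381 and 0.237). Neutrophil marker sums in the same spleen libraries were 435600 to 496800 at 3 months and 121300 to 230700 at 24 months, with 3 of 6 genes called lower, and their part in these changes was not tested.

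Rbm3, a cold-inducible RNA-binding protein gene, differed with age in opposite directions in the tissues. In VAT it went from 13950 ± 1143 at 3 months to 9864 ± 1183 at 24 months (log2 -0.50, adjusted p = 0.0467, limma), a call lost under 8 of 15 alternatives. In spleen it went from 4061 ± 626 to 6517 ± 909 (log2 0.68, adjusted p = 0.0229), which was not called once 3-month replicate 1 (0.0551) or 2 (0.135) was left out. The interaction of tissue and age was a log2 of -1.18 (adjusted p = 0.00871), called under all 19 alternatives. Cirbp, its relative, rose in spleen (log2 0.82, adjusted p = 0.0326), a call lost under 3 of 14 alternatives. None of the 12 glucocorticoid-responsive genes was called with age in either tissue (limma).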
